A study of Mus musculus with 11 samples.

Results

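The 7 knees described here are 4 contralateral and 3 operated knees of wild-type mice, out of 11 knees in the whole series. They were chosen by label: c-FosWT animals, with the side that underwent destabilization of the medial meniscus (DMM) set against the side that did not. DMM is an operation that cuts the ligament holding the medial meniscus of the knee, and it is used in mice as a model of osteoarthritis. All animals were of the C57BL/6 strain, were 14 weeks old and were killed 4 weeks after surgery, and the c-FosWT animals carry no stated change of the Fos gene. The remaining 4 knees are operated knees of animals labelled c-FosDCh. They enter only the filter on low counts, the scaling and the fits, where they help to estimate the spread between replicates. In fits with a tissue score as a covariate they also help to set the slope of that score. Articular cartilage was cut from the joint with a scalpel, and poly(A) RNA was sequenced as single reads of 75 bases. The control knee is the other knee of an operated animal, and no sham-operated knee was analysed here. By the animal names in the labels, 3 animals gave both knees: contralateral 1 with DMM 1 (pair 1), contralateral 2 with DMM 2 (pair 2), and contralateral 4 with DMM 3 (pair 3). Contralateral 3 has no operated partner.

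Articular cartilage is a tissue without vessels in which chondrocytes keep a matrix of type II collagen, aggrecan and many smaller proteins. The surface layer makes lubricants, and the deep layer borders calcified cartilage, bone and marrow, so a scalpel cut through a mouse joint can carry RNA of neighbouring tissue. In osteoarthritis the matrix is lost, and enzymes that cut collagen and aggrecan, such as MMP13 and ADAMTS5, take part in that loss.

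Defining markers of cartilage were present in all 7 libraries, beside markers of other tissues. Col2a1, the main collagen of cartilage, ranged from 2329 to 12290 CPM (counts scaled to a library total of 1e+06), Acan, the core protein of aggrecan, from 473.7 to 3531 CPM, and Comp, a matrix protein that binds collagen, from 768.9 to 4707 CPM. Matn1, a matrilin known from other cartilages, was low throughout, at 0.0573 to 5.86 CPM. Col1a1, the main collagen of bone and fibrous tissue, had 19430 to 33650 CPM. Summed over their lists, skeletal muscle genes had 161.7 to 28040 CPM and erythroid genes 2806 to 15490 CPM, so the libraries are not of cartilage alone. Gene counts per library ranged from 13593454 to 18280558.

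A pair of libraries from 1 animal stood apart. Xist, the RNA that coats the inactive X chromosome in female cells, had 62, 1164, 9 and 5 counts in contralateral 1 to 4 and 7, 5536 and 10 counts in DMM 1 to 3. The genes Ddx3y, Eif2s3y, Kdm5d and Uty of the Y chromosome were present in all of these libraries. Both knees of pair 2 thus held Xist beside Y-linked transcripts, and the labels give no sex. Counts of called genes and list medians are therefore also given without pair 2.

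No gene passed the unpaired test of DMM against contralateral knees. With edgeR's quasi-likelihood test over 18125 genes, 0 genes (0%) had a Benjamini-Hochberg adjusted p under 0.05, and the lowest adjusted p was 0.182. Without adjustment 3605 genes were under 0.05, of which 1304 were higher and 2301 lower after DMM. limma-voom also called 0 genes, with 3805 under 0.05 before adjustment. DESeq2, the tool named in the labels, called 902 genes: 370 higher (2.04% of all genes tested) and 532 lower (2.94%). That count rested on single libraries. It was 88, 53, 21 and 2074 without contralateral 1, 2, 3 and 4 in turn, and 2166, 16 and 28 without DMM 1, 2 and 3. Fitted on the 7 c-FosWT libraries alone, DESeq2 called 3032 genes. Without both libraries of pair 2 edgeR called 0 genes (lowest adjusted p 0.737) and DESeq2 called 3. These tests take the 7 knees as independent, although 3 animals gave 2 of them each.

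The 3 animals shifted by different amounts. The median absolute difference between the knees of an animal was 0.245 in pair 1, 0.472 in pair 2 and 0.308 in pair 3 on the log2 scale (CPM with a prior count of 2). A difference of at least 1 was seen in 1407, 4502 and 1085 genes. Across genes, which are not independent replicates, the differences of pairs 2 and 3 had a Pearson r of 0.521, those of pairs 1 and 2 of 0.154, and those of pairs 1 and 3 of 0.073. The density plot of one pair against another shows the cloud of pairs 2 and 3 along the diagonal. It also shows a tail of genes that were far higher in the operated knee of pair 1 and lower in that of pair 2, and the 21 tested skeletal muscle genes all differed by at least 1 in both of these pairs.

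**Figure D1:**
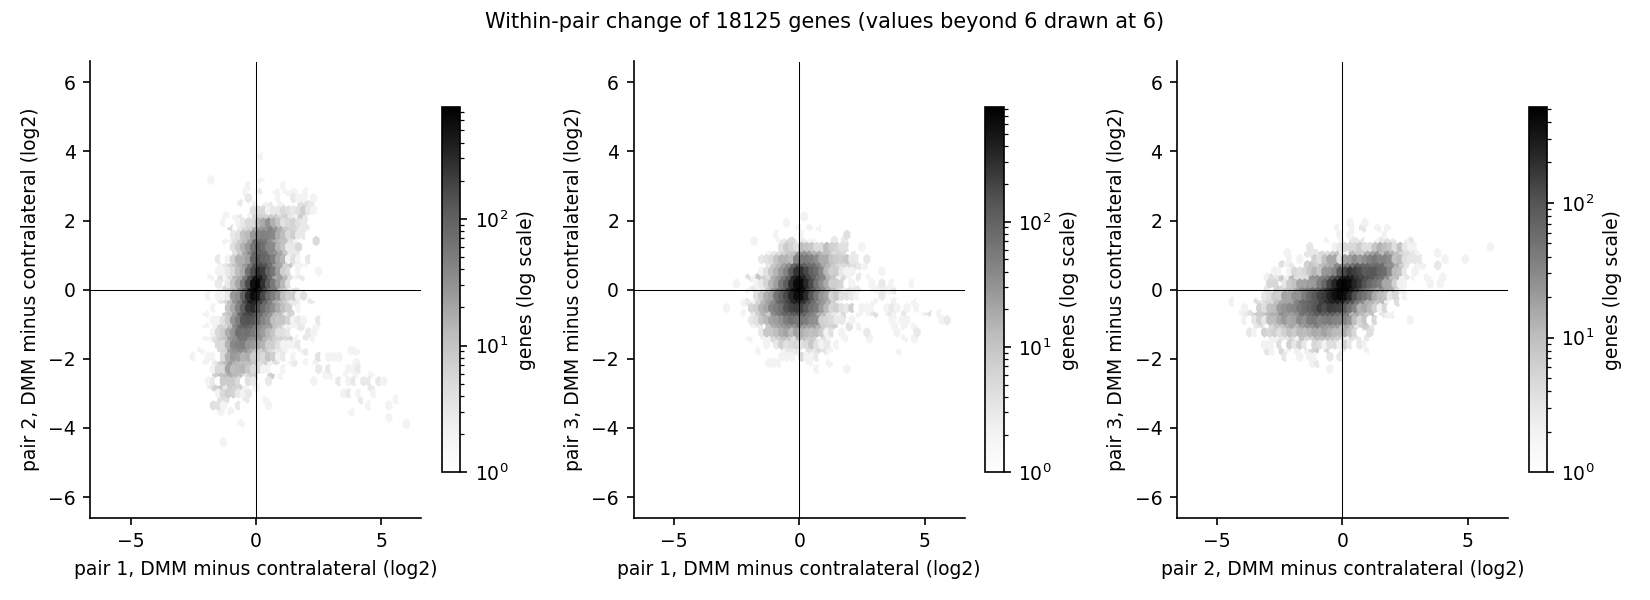
Difference between the operated and the contralateral knee (log2 CPM) for each of 18125 genes, 1 animal against another, with grey showing the number of genes per hexagon on a log scale. The genes of pairs 2 and 3 lie along the diagonal (r = 0.521), while pair 1 shows little relation to pair 2 (0.154) or pair 3 (0.073).

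All 3 pairs had the same sign for 3958 higher (21.8%) and 4415 lower genes (24.4%). Fewer genes differed by much in every animal: 71 genes were higher by at least 1 in every pair (0.392%) and 53 were lower by at least 1 in every pair (0.292%). The 3 operated knees lay above all 4 contralateral knees for 1823 genes (10.1%) and below them for 2367 genes (13.1%). These counts were 4147 and 4803 without DMM 1, and 3560 and 4025 without contralateral 4. A gene whose groups do not overlap has 1 sign in all pairs by definition, so these counts are not separate results. The shares over all genes are the background for the counts of list members that follow. Of the 902 genes that DESeq2 called, 898 had 1 sign in all pairs and 837 had groups that did not overlap. A sign-flip test over 3 pairs cannot give a p under 0.25, so the pairs are given as values. With the animal as a block, fitted on the libraries of the 3 pairs alone, edgeR called 0 genes (lowest adjusted p 0.2053) and DESeq2 called 1028.

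Marker lists of several tissues differed in level between the knees. The cartilage score, the mean log2 CPM of 32 cartilage matrix and chondrocyte genes, was 8.09, 7.57, 7.82 and 7.78 in contralateral 1 to 4 and 7.61, 6.01 and 6.96 in DMM 1 to 3. It was lower in the operated knee of every pair, by 0.48, 1.56 and 0.82 in size, and the groups overlapped because DMM 1 stood above contralateral 2. The erythroid score, over 21 genes of red cell precursors, was 5.93, 5.71, 5.37 and 7.31 in contralateral knees and 7.60, 7.79 and 8.24 in operated knees. All operated knees were above all contralateral knees, and contralateral 4 was closest to them. The granulocyte score was higher in the operated knee by 0.05, 1.56 and 0.46 in pairs 1, 2 and 3.

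Muscle RNA was high in single knees of both groups. The skeletal muscle score was 4.10, 8.04, 1.70 and 4.17 in contralateral knees and 8.76, 4.90 and 3.25 in operated knees, so contralateral 2 and DMM 1 were the muscle-rich knees. Summed over 21 genes it was 161.7 to 17810 CPM in contralateral and 638.2 to 28040 CPM in operated knees. The macrophage score was flat, at 4.91 to 5.13 in contralateral and 4.95 to 4.97 in operated knees. Scores of osteoblasts and osteocytes were lower in the operated knee of each pair, by 0.30, 0.53 and 0.23 in size. In bulk tissue, fewer cells of a type and less RNA of that type per cell cannot be told apart.

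**Figure D2:**
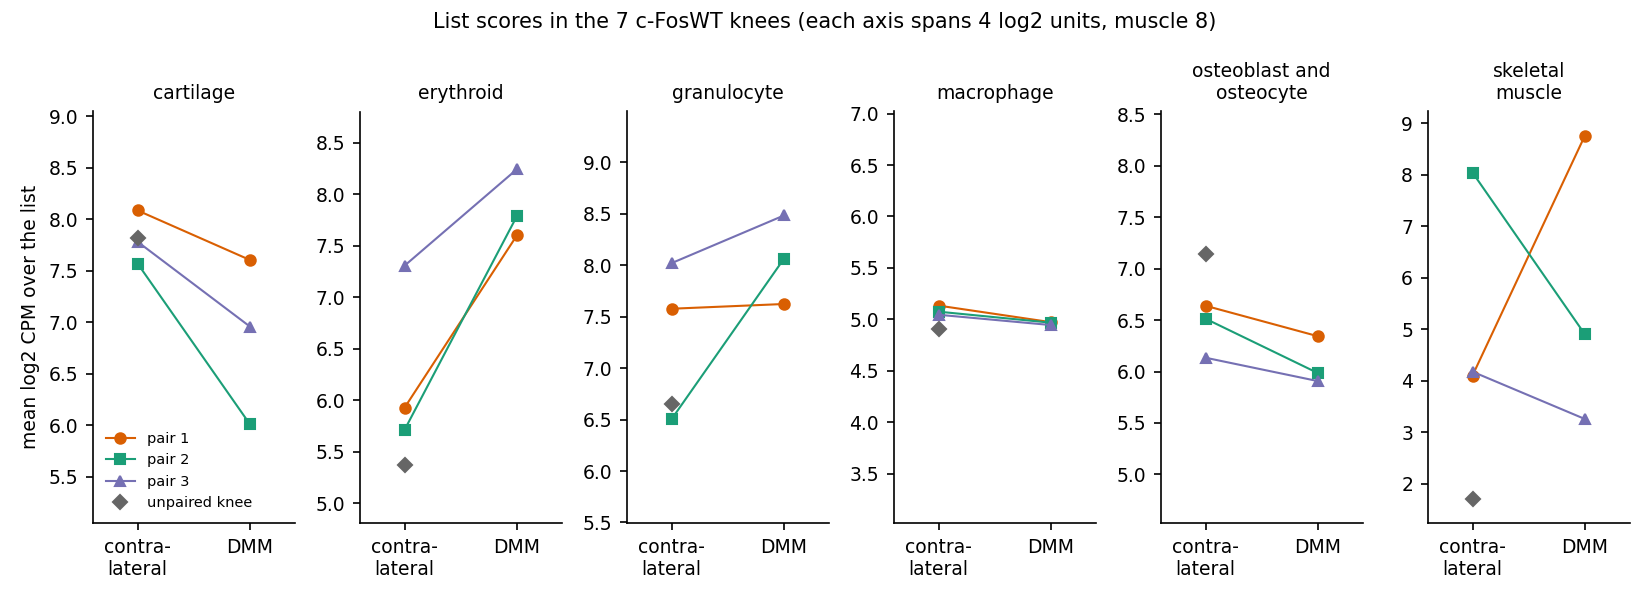
Mean log2 CPM of 6 marker lists in each of the 7 c-FosWT knees, with lines joining the knees of 1 animal and a diamond for contralateral 3, which has no partner. The cartilage score is lower at the operated end of every line, all operated knees lie above all contralateral knees in the erythroid score, and muscle is high in contralateral 2 and DMM 1.

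Genes of cartilage matrix and chondrocyte identity were lower in operated knees in most members. Of 32 genes 24 were lower in all 3 pairs and 0 higher, beside 24.4% and 21.8% of all genes, and 13 had operated knees below every contralateral knee, beside 13.1%. The median log2 difference was -1.06, against -0.01 over all genes tested. The pairs had medians of -0.80, -1.82 and -0.69. DESeq2 called 9 members as lower (Comp, Sox5, Sox9, Wwp2, Cytl1, Chad, Prelp, Susd5 and Trpv4), beside 2.94% of all genes, and edgeR called 0. Without both libraries of pair 2 DESeq2 called 3 of all genes tested, and 0 of these were lower.

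Sox9, the transcription factor that sets chondrocyte identity, had 157, 135, 171 and 120 CPM in contralateral 1 to 4 and 76.4, 21.6 and 53.6 CPM in DMM 1 to 3. The operated knees were all lower, by a log2 fold change of -1.53 ± 0.46 (SE, edgeR adjusted p 0.182, DESeq2 adjusted p 0.0291). Here and below, fold changes with ± SE are from the edgeR fit, also where a gene passed only in DESeq2. Its partner Sox5 had 195, 196, 197 and 107 CPM against 95.5, 45.9 and 65.7 CPM. Wwp2, a ubiquitin ligase whose intron hosts a cartilage microRNA, had 943, 808, 756 and 475 CPM against 412, 242 and 361 CPM. In all of these genes DMM 2 was the lowest knee and contralateral 4 the lowest of the controls.

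The matrix genes themselves differed unevenly. Acan had 3230, 2460, 3531 and 2338 CPM in contralateral knees and 1774, 473.7 and 1408 CPM in operated knees (log2 fold change -1.25 ± 0.50, edgeR adjusted p 0.217, DESeq2 adjusted p 0.0853). Col2a1 had 12290, 4444, 7677 and 6617 CPM against 6277, 2329 and 6348 CPM. Its groups overlapped, and pair 3 differed by -0.06 only, against -0.97 and -0.93 in pairs 1 and 2. Comp had 4707, 4538, 4514 and 2003 CPM against 2005, 768.9 and 1451 CPM, with contralateral 4 level with DMM 1.

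**Figure D3:**
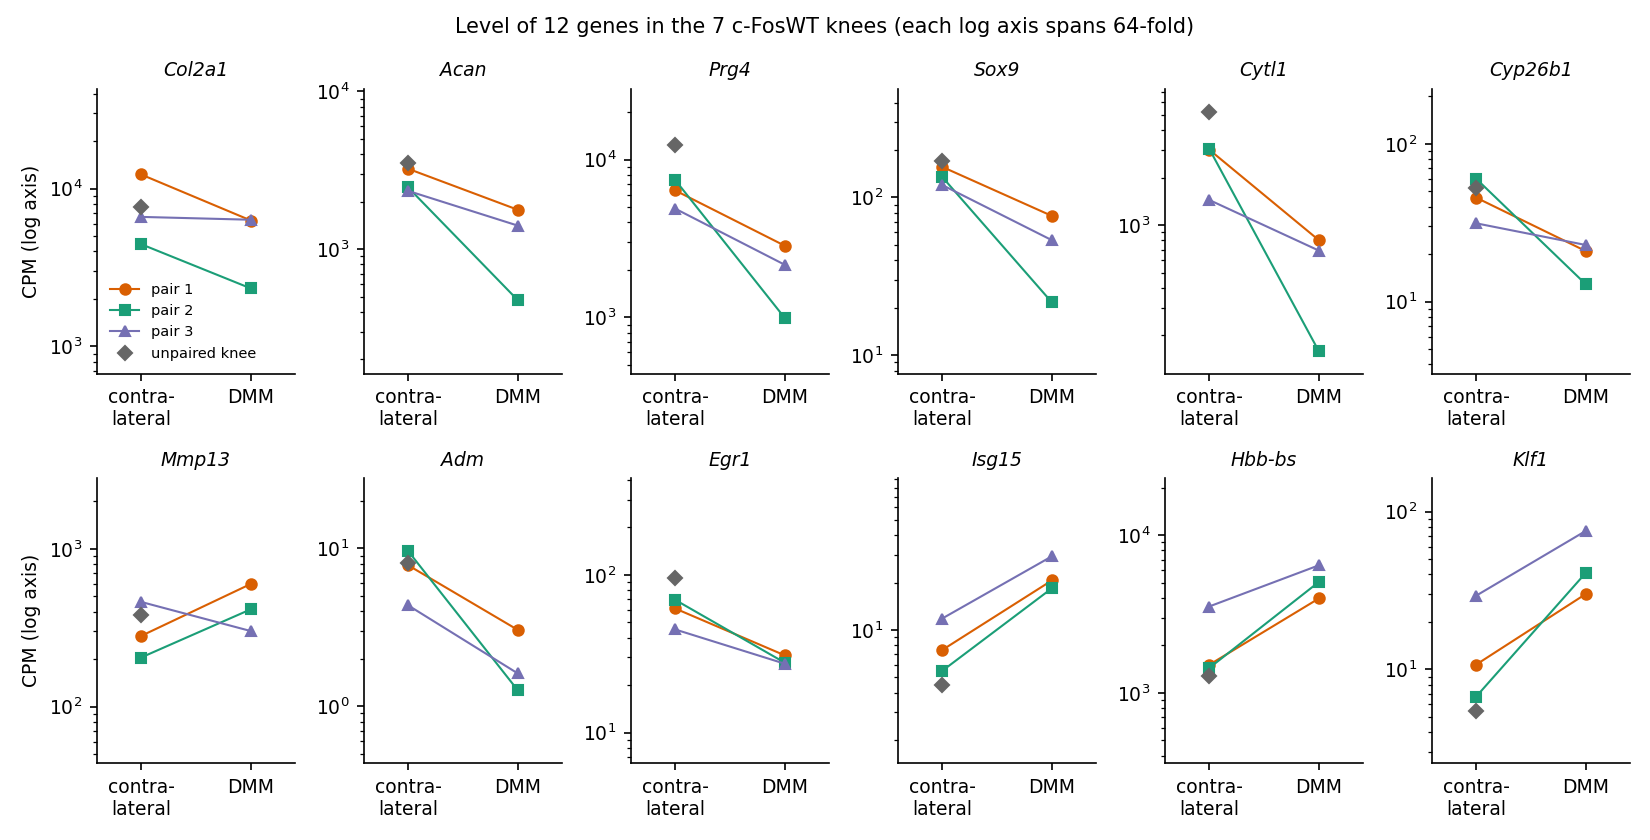
CPM on a log axis of 12 genes in the 7 c-FosWT knees, with lines joining the knees of 1 animal and a diamond for contralateral 3. Acan, Prg4, Sox9, Cytl1, Cyp26b1, Adm and Egr1 are lower and Isg15, Hbb-bs and Klf1 higher in the operated knee of every pair, while Mmp13 is higher in pairs 1 and 2 and lower in pair 3.

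Of 13 genes of the superficial zone and of lubrication, 10 were lower in all pairs, beside 24.4% of all genes, and 8 had operated knees below every control, beside 13.1% (median -1.24). Prg4, which encodes the lubricant lubricin, had 6386, 7443, 12420 and 4894 CPM in contralateral knees and 2844, 989.4 and 2154 CPM in operated knees (-1.96 ± 0.71, edgeR adjusted p 0.194, DESeq2 adjusted p 0.0419). Every pair differed by more than 1 on the log2 scale (-1.17, -2.91 and -1.18). Clec3a, a cartilage lectin, had 1237, 1171, 1769 and 537 CPM against 394, 112 and 387 CPM. Has2, a hyaluronan synthase, had 23.6, 21.1, 24.5 and 14.7 CPM against 10.4, 3.26 and 7.51 CPM. Clu (clusterin) and Creb5, a transcription factor known for driving Prg4, also passed in DESeq2 as lower (-1.70 ± 0.58 and -1.54 ± 0.48).

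Each cartilage gene was also set against the level of the others. For each gene the cartilage score computed without that gene was subtracted from its log2 CPM. Because the score is the mean of the same 32 genes, this scale holds their median near 0 (-0.12), and it serves only to order the genes among themselves. Cytl1, a small secreted protein of chondrocytes, kept the lowest relative value (-1.80; pairs -1.48, -2.79 and -0.25). Its CPM were 3016, 3060, 5237 and 1446 in contralateral knees and 802.9, 158.8 and 689.8 in operated knees. Chad, which encodes chondroadherin (-1.26), Prg4 (-1.05), Sox9 (-0.76), Has2 (-0.72) and Hapln1, the link protein of aggrecan (-0.60), also had operated knees below all controls relative to the score.

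Other cartilage genes were high relative to the score. Runx3, a Runt transcription factor (1.46), Slc20a2, a phosphate transporter (0.98), Sox6 (0.90), the hyaluronan receptor Cd44 (0.86) and the collagen genes Col11a1 (0.57) and Col9a2 (0.45) had operated knees above all controls. Sox6 shows what this means: its CPM barely differed, at 179, 174, 184 and 172 in contralateral knees and 193, 130 and 187 in operated knees, while the cartilage score was lower. Runx3 had 18.4, 17.4, 19.4 and 27.4 CPM against 24.8, 31.0 and 31.3 CPM, with overlap. Runx3 is also expressed in blood cells, and the erythroid score was higher in the same knees, and its part in the value was not tested. With the marrow score as a covariate the log2 difference of Runx3 was -0.15.

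**Figure D4:**
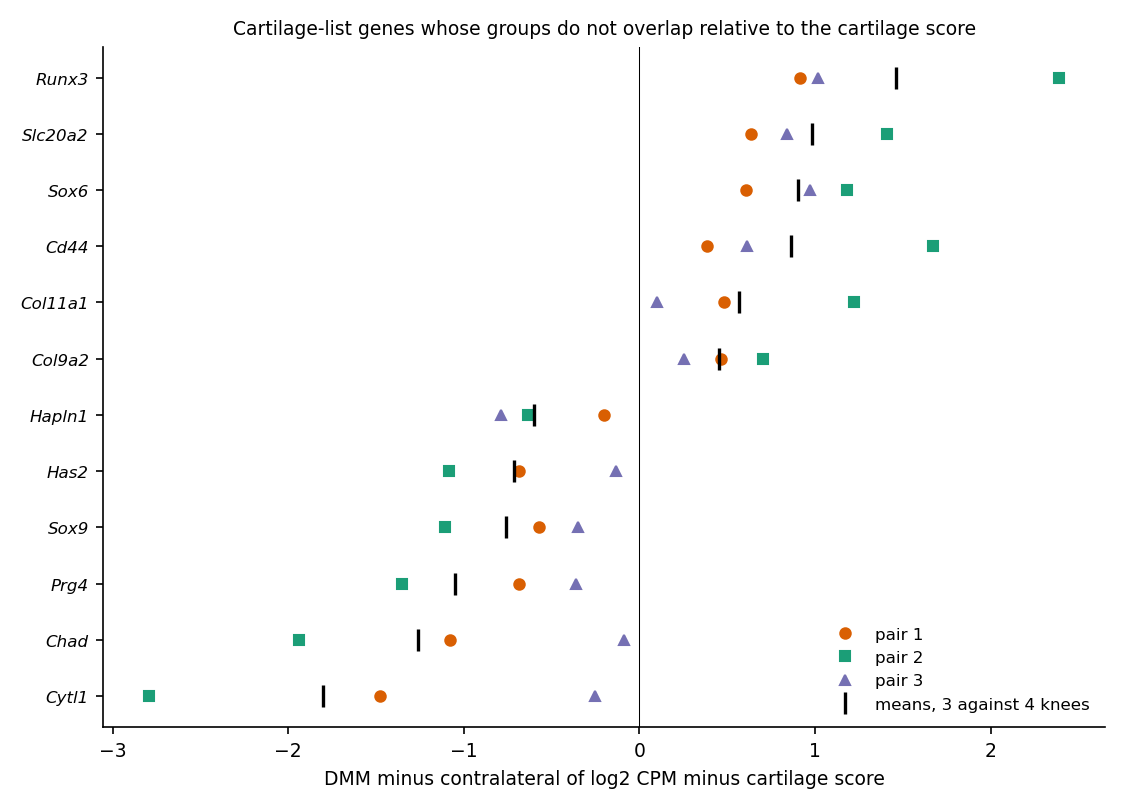
Difference between operated and contralateral knees in log2 CPM minus the cartilage score, for the genes of 3 cartilage lists whose groups do not overlap on this scale, with 1 symbol per pair and a bar for the difference of group means. Cytl1, Chad, Prg4, Sox9, Has2 and Hapln1 lie to the left of 0 in all pairs and Runx3, Slc20a2, Sox6, Cd44, Col11a1 and Col9a2 to the right.

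A few cartilage genes varied more among the control knees than with the operation. Matn3, a matrilin, had 16.9, 0.714, 1.85 and 138 CPM in contralateral knees and 95.1, 21.5 and 22.7 CPM in operated knees. Col9a1 had 77.8, 20.8, 23.7 and 205 CPM against 170, 36.4 and 68.3 CPM. Epyc, a small proteoglycan, had 0.877, 1.86, 0.418 and 6.28 CPM against 2.40, 1.09 and 0.556 CPM. Contralateral 4 and DMM 1 were the highest knees for each of the 3 genes, which were picked after their values were seen. Relative to the cartilage score Matn3 differed by 3.06, 6.46 and -1.83 in the pairs.

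Genes of hypertrophic and mineralising cartilage had a median of -0.47. Of 17 genes 12 were lower in all pairs, beside 24.4% of all genes, and DESeq2 called 2 as lower, beside 2.94%. Col10a1, the collagen of hypertrophic chondrocytes, had 1548, 1205, 2171 and 1681 CPM in contralateral knees and 1134, 168.6 and 828.5 CPM in operated knees (-1.22 ± 0.61, edgeR adjusted p 0.291). Enpp1 and Ank, which supply the mineralisation inhibitor pyrophosphate outside the cell, passed in DESeq2 as lower (-1.24 ± 0.36 and -0.94 ± 0.28). The cartilage score itself differed by -0.956, so a gene with no difference in CPM gets a positive value relative to it. On that scale the median of the list was 0.49, with 7 of 17 genes higher in all pairs and 0 lower. The change of sign of the median therefore follows from the score and is not a rise of the list. In log2 CPM itself 1 of the 17 genes was higher in all pairs, Runx3 (0.43, 0.83 and 0.19). Phospho1, a phosphatase that starts mineral deposition, was among the 7 genes higher relative to the score (0.85). It had 3.26, 3.78, 3.82 and 2.08 CPM against 3.63, 3.49 and 1.95 CPM.

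The groups overlapped for the matrix-cutting enzymes Mmp13, Adamts5 and Mmp3, which are linked to osteoarthritis. Mmp13, a collagenase, had 281, 205, 380 and 461 CPM in contralateral knees and 600, 414 and 301 CPM in operated knees. It was higher in pairs 1 and 2 (1.10 and 1.02) and lower in pair 3 (-0.61), and the log2 fold change was 0.40 ± 0.44 (edgeR adjusted p 0.599). Adamts5, the main aggrecanase of mouse cartilage, had 94.9, 149, 96.9 and 66.4 CPM against 86.0, 89.4 and 65.5 CPM, and it was lower in every pair (-0.14, -0.73 and -0.02). Mmp3, stromelysin, ranged from 8.65 to 73.7 CPM in controls and from 13.2 to 27.2 CPM in operated knees, and it too was lower in every pair (-0.40, -0.46 and -2.47). Of 25 proteases and inhibitors 12 were lower and 2 higher in all pairs, beside 24.4% and 21.8% of all genes, and 6 had operated knees below every control, beside 13.1%. Of the list 2 genes were called by DESeq2, both inhibitors and both lower, beside 2.94% of all genes. They were Timp2 (-0.50 ± 0.16) and Serpina1a (-2.09 ± 0.61). Serpina1a is an alpha-1-antitrypsin gene with near-identical copies, and its counts are uncertain for that reason.

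Most genes of collagen biosynthesis were lower in operated knees. Of 20 enzymes and chaperones 18 were lower in all pairs, beside 24.4% of all genes, and 14 had operated knees below every control, beside 13.1% (median -0.69). Fkbp10, a collagen chaperone, had 191, 154, 201 and 141 CPM in contralateral knees and 131, 91.4 and 96.0 CPM in operated knees (-0.70 ± 0.19, edgeR adjusted p 0.182, DESeq2 adjusted p 0.0332). Crtap, a part of the prolyl 3-hydroxylase complex, differed by -0.78 ± 0.23. Of 26 genes of glycosaminoglycan synthesis and sulfation 16 were lower in all pairs, beside 24.4% of all genes (median -0.47). DESeq2 called Ust, a sulfotransferase (-0.92 ± 0.26). With the cartilage score as a covariate the medians of these lists were -0.29 and -0.16.

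Fibrous matrix was mixed. Col1a1, the collagen of bone and fibrous tissue, had 19430, 28820, 29030 and 28050 CPM in contralateral knees and 33650, 33420 and 31120 CPM in operated knees. All operated knees were higher, with a log2 fold change of 0.31 ± 0.48 (edgeR adjusted p 0.710). Fn1 (fibronectin) and Bgn (biglycan) were lower in every operated knee and passed in DESeq2 (-0.98 ± 0.36 and -0.64 ± 0.19). Of 24 fibrous and elastic matrix genes 3 were higher and 9 lower in all pairs, beside 21.8% and 24.4% of all genes (median -0.33).

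Growth factor genes were also lower in most members. All 36 tested TGF-beta and BMP genes had a negative log2 fold change, 27 were lower in all pairs, beside 24.4% of all genes, and DESeq2 called 7 as lower, beside 2.94% (median -0.69). These factors act through SMAD proteins and keep chondrocytes in the cartilage state. Among ligands and antagonists, Gdf10 had 89.8, 57.1, 79.8 and 44.1 CPM in contralateral knees and 33.0, 22.6 and 31.2 CPM in operated knees (-1.23 ± 0.30), and Tgfb3, Grem1 and Chrd were also called. Among targets, Id4 had 42.6, 59.3, 77.4 and 25.6 CPM against 17.2, 11.8 and 15.6 CPM (-1.79 ± 0.42, edgeR adjusted p 0.182, DESeq2 adjusted p 0.00917), and Id1 differed by -0.98 ± 0.26. The receptors Tgfbr1 (-0.08) and Tgfbr2 (-0.24) differed little.

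The Wnt list holds ligands, receptors, secreted inhibitors and targets. Of its 36 genes 17 were lower and 2 higher in all pairs, beside 24.4% and 21.8% of all genes (median -0.57). DESeq2 called 6 genes of the list, all lower, beside 2.94% of all genes. They were receptors (Fzd2, Fzd7, Fzd9 and Lgr6) and secreted inhibitors (Sfrp5 and Frzb). Sfrp5 had 53.6, 40.6, 71.0 and 29.5 CPM in contralateral knees and 16.9, 3.49 and 15.4 CPM in operated knees. Frzb, an inhibitor that articular cartilage makes in quantity, had 578, 365, 720 and 234 CPM against 236, 39.0 and 139 CPM, with contralateral 4 just below DMM 1. The median of the list was -0.54 with the marrow score and -0.50 with the cartilage score as a covariate, so it moved little in either fit.

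Of 23 tested IGF and FGF genes 12 were lower and 2 higher in all pairs, beside 24.4% and 21.8% of all genes (median -0.72). Fgf18, a growth factor for chondrocytes, had 3.01, 5.14, 3.70 and 2.34 CPM in contralateral knees and 1.82, 1.03 and 0.890 CPM in operated knees (-1.50 ± 0.40, DESeq2 adjusted p 0.0226). Its receptor gene Fgfr3 had 245, 194, 255 and 149 CPM against 135, 64.2 and 108 CPM. Igfbp7, Fgf2, Fgfr1 and Etv5 also passed in DESeq2 as lower. The covariate medians were -0.61 (marrow) and -0.41 (cartilage).

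Of 17 tested retinoic acid genes 8 were lower and 3 higher in all pairs, beside 24.4% and 21.8% of all genes (median -0.23). Cyp26b1, the enzyme that clears retinoic acid (chromosome 6, 84571414 to 84593908 on the reverse strand, GRCm38), had 45.7, 60.3, 52.4 and 31.4 CPM in contralateral knees and 20.9, 12.9 and 22.9 CPM in operated knees. The operated knees were all lower, with a log2 fold change of -1.33 ± 0.24 (edgeR adjusted p 0.182, DESeq2 adjusted p 0.0011). It differed by -1.15 with the marrow score and -1.12 with the cartilage score as a covariate. Rbp4, which carries retinol, had 94.0, 97.9, 155 and 43.1 CPM against 31.6, 9.85 and 27.5 CPM, and the receptor gene Rarg had 137, 148, 160 and 105 CPM against 82.7, 65.8 and 85.8 CPM. Aldh1a1, which makes retinoic acid, was higher in every operated knee, at 27.4, 32.0 and 39.4 CPM against 10.6, 20.8, 15.7 and 23.0 CPM (0.91 ± 0.31, edgeR adjusted p 0.187, DESeq2 adjusted p 0.0666).

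Fos and its partners form the AP-1 transcription factor, which is switched on within minutes of stress. Fos itself had 17.1, 24.8, 22.0 and 15.7 CPM in contralateral knees and 12.1, 14.1 and 9.01 CPM in operated knees (-0.76 ± 0.35, edgeR adjusted p 0.255). Fosb was also lower in every operated knee and passed in DESeq2 (-1.21 ± 0.37). Mafk, a small MAF protein, was higher in every operated knee, at 40.4, 46.4 and 55.1 CPM against 28.3, 35.9, 27.9 and 27.2 CPM (0.67 ± 0.17, DESeq2 adjusted p 0.0265). Fosl2 differed by 0.14 and Jdp2 by 0.09. Of the 14 tested AP-1 genes 2 were higher and 4 lower in all pairs, which is near or under the shares of all genes (21.8% and 24.4%).

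Immediate early genes outside AP-1 were lower in 13 of 26 and higher in 5 of 26 in all pairs (median -0.30). The shares of all genes were 24.4% and 21.8%. Egr1 had 61.4, 69.6, 96.2 and 45.2 CPM in contralateral knees and 30.9, 27.8 and 27.4 CPM in operated knees (-1.25 ± 0.31, edgeR adjusted p 0.182, DESeq2 adjusted p 0.016). Ier3 had 17.4, 19.4, 22.4 and 13.6 CPM against 10.1, 5.84 and 8.57 CPM. These genes also respond to handling of tissue, and no value for the time between death and RNA isolation was used here.

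Hypoxia response genes, which HIF factors switch on when oxygen is low, were lower in 21 and higher in 2 of 28 members in all pairs, beside 24.4% and 21.8% of all genes. In 14 members the operated knees lay below every control, beside 13.1% (median -0.83). Adm, the peptide adrenomedullin, had 7.83, 9.64, 8.11 and 4.36 CPM in contralateral knees and 3.04, 1.26 and 1.61 CPM in operated knees (-1.92 ± 0.42, edgeR adjusted p 0.182, DESeq2 adjusted p 0.00454). Bnip3, a mitophagy receptor, had 58.0, 58.0, 69.2 and 37.3 CPM against 30.9, 12.8 and 19.1 CPM. Slc2a1, the glucose transporter GLUT1, had 97.6, 91.1, 111 and 60.9 CPM against 45.7, 22.4 and 39.3 CPM. Vegfa, the vessel growth factor, had 115, 141, 150 and 87.0 CPM against 79.8, 51.9 and 65.5 CPM. DESeq2 called Adm, Ankrd37, Bnip3, Car9 and Eno2, all lower, beside 2.94% of all genes. The medians were -0.45 with the marrow score and -0.35 with the cartilage score as a covariate.

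The core letters of the HIF site are ACGTG, which read as CACGT on the other strand, and both were searched in RefSeq promoters of build GRCm38.p6, from 250 bases before to 50 after the first listed start of a gene. They were present in 12 of 22 matched promoters of the hypoxia list (54.5%) and in 5315 of 27025 promoters of all genes (19.7%). A short match is a description of the letters and not of binding. Matched promoters were chosen as examples of where the letters lie, and those of Adm, Vegfa and Eno2 held no match in this window. The 250 bases before the start are shown for Slc2a1 (chr4:119108495-119108744, forward strand) and Bnip3 (chr7:138909507-138909756, reverse strand), 5′ to 3′ on the strand of the gene, with the matched letters in capitals. In Bnip3 the letters match on both strands and overlap.
Slc2a1: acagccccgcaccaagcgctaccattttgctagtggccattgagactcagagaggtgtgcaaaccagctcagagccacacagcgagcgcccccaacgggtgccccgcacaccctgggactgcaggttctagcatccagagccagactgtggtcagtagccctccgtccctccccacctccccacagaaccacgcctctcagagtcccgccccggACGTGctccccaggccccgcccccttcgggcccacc
Bnip3: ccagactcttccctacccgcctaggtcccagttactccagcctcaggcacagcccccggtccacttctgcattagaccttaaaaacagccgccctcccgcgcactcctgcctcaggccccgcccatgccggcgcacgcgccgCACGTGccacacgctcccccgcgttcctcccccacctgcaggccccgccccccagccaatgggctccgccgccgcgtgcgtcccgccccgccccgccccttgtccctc

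Energy genes differed less. Of 21 glycolysis and lactate genes 9 were lower and 3 higher in all pairs, beside 24.4% and 21.8% of all genes (median -0.34). Eno2, also a hypoxia gene, had 13.9, 15.6, 14.0 and 13.4 CPM in contralateral knees and 9.25, 5.21 and 8.12 CPM in operated knees (-0.92 ± 0.18, DESeq2 adjusted p 0.00255). Aldoa, which muscle also makes in quantity, had 1137 CPM in DMM 1 and 912 CPM in contralateral 2, the muscle-rich knees, and 320 to 491 CPM elsewhere. Of 30 nuclear-encoded respiratory chain genes 13 were higher and 1 lower in all pairs, beside 21.8% and 24.4% of all genes (median 0.23). DESeq2 called Atp5b and Atp5a1, subunits of ATP synthase, as higher (0.37 ± 0.14 and 0.29 ± 0.11), beside 2.04% of all genes.

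Interferon response genes were higher in 16 of 23 members in all pairs, beside 21.8% of all genes, and lower in 0 (median 0.56). In 10 members the operated knees lay above every control, beside 10.1%. Isg15, a ubiquitin-like protein, had 7.46, 5.50, 4.47 and 11.8 CPM in contralateral knees and 20.6, 18.4 and 29.3 CPM in operated knees (1.64 ± 0.51, edgeR adjusted p 0.182, DESeq2 adjusted p 0.0369). Rsad2, the antiviral protein viperin, had 35.8, 36.2, 24.6 and 77.2 CPM against 146, 121 and 135 CPM. Contralateral 4 was the highest control for both, as it was for the erythroid score. With the marrow score as a covariate the median of the list was -0.19 and with the cartilage score -0.03. Isg15 and Rsad2 differed by 0.74 and 0.76 in the fit with the marrow score.

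Inflammatory genes gave no common direction. Of 23 tested cytokine and NF-kB target genes 9 were higher and 5 lower in all pairs, beside 21.8% and 24.4% of all genes (median 0.12). DESeq2 called 0 of them, beside 2.04% of all genes called higher and 2.94% called lower. Il6, Ccl2, Ccl20, Cxcl1, Cxcl2 and Saa3 had too few counts to be tested. Ptgs2, the inducible cyclooxygenase, had 6.64, 6.64, 7.52 and 6.17 CPM in contralateral knees and 4.57, 1.20 and 1.84 CPM in operated knees (-1.41 ± 0.57, edgeR adjusted p 0.221). Il1b had 13.9, 6.07, 8.11 and 13.4 CPM against 13.8, 17.8 and 15.2 CPM, with overlap.

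Erythroid genes had the highest median of the 34 lists. All 21 tested erythroid genes were higher in all pairs and had operated knees above every control, beside 21.8% and 10.1% of all genes (median 1.66). Summed over the list, the level was 2806 to 8238 CPM in contralateral and 9649 to 15490 CPM in operated knees, and no defining marker was at 0. Hbb-bs, an adult beta-globin gene with a near-identical copy, had 1503, 1433, 1276 and 3523 CPM against 3963, 5045 and 6432 CPM (1.41 ± 0.67, edgeR adjusted p 0.265). Klf1, the transcription factor of red cell precursors, had 10.7, 6.71, 5.49 and 29.3 CPM against 30.1, 41.0 and 75.6 CPM. Sptb, which encodes a spectrin of the red cell skeleton, passed in DESeq2 as higher (1.93 ± 0.49), as did Fech and Tmcc2.

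A form of the site of GATA factors is AGATAA, which reads as TTATCT on the other strand, and either was present in 6 of 17 matched erythroid promoters (35.3%) and in 3083 of 27025 promoters of all genes (11.4%), searched as above. The 250 bases before the start are shown for Hbb-bs (chr7:103827929-103828178, reverse strand) and Alas2 (chrX:150547167-150547416, forward strand), the haem synthesis enzyme of red cells, as examples of promoters with a match, while those of Klf1 and Sptb held none. Matched letters are in capitals.
Hbb-bs: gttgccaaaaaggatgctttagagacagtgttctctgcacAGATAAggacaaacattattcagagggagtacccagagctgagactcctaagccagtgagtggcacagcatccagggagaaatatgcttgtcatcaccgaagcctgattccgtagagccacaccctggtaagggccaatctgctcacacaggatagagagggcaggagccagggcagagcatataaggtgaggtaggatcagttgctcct
Alas2: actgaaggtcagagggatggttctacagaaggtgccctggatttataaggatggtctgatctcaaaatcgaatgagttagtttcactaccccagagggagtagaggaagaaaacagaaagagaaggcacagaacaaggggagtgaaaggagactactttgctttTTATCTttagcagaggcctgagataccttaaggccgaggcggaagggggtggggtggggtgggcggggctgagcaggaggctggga

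Granulocyte genes, also from marrow, had a median of 0.78, with 11 of 20 higher in all pairs and 2 above every control, beside 21.8% and 10.1% of all genes. S100a8, a neutrophil protein, had 1186, 489, 520 and 1912 CPM in contralateral knees and 1351, 1342 and 1802 CPM in operated knees. B cell, macrophage and osteoclast genes had median log2 differences of 0.56, 0.06 and 0.18. The marrow score, which averages erythroid and granulocyte genes, was itself higher by 1.346 in operated knees. A gene with no difference in CPM therefore gets a negative value relative to it. On that scale the medians of the B cell, macrophage and osteoclast lists were -0.88, -1.28 and -1.15, which is not a fall in their own level.

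Proliferation genes went with the erythroid genes. All 30 cell cycle genes were higher in all pairs and 14 lay above every control, beside 21.8% and 10.1% of all genes (median 1.10). DESeq2 called 0 of them, beside 2.04% of all genes called higher. Mki67, a marker of dividing cells, had 373, 233, 228 and 713 CPM in contralateral knees and 861, 1029 and 1183 CPM in operated knees (1.41 ± 0.64, edgeR adjusted p 0.255). The median was 0.12 with the marrow score and 0.33 with the cartilage score as a covariate. The part of marrow RNA in these values was not tested beyond those fits.

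**Figure D5:**
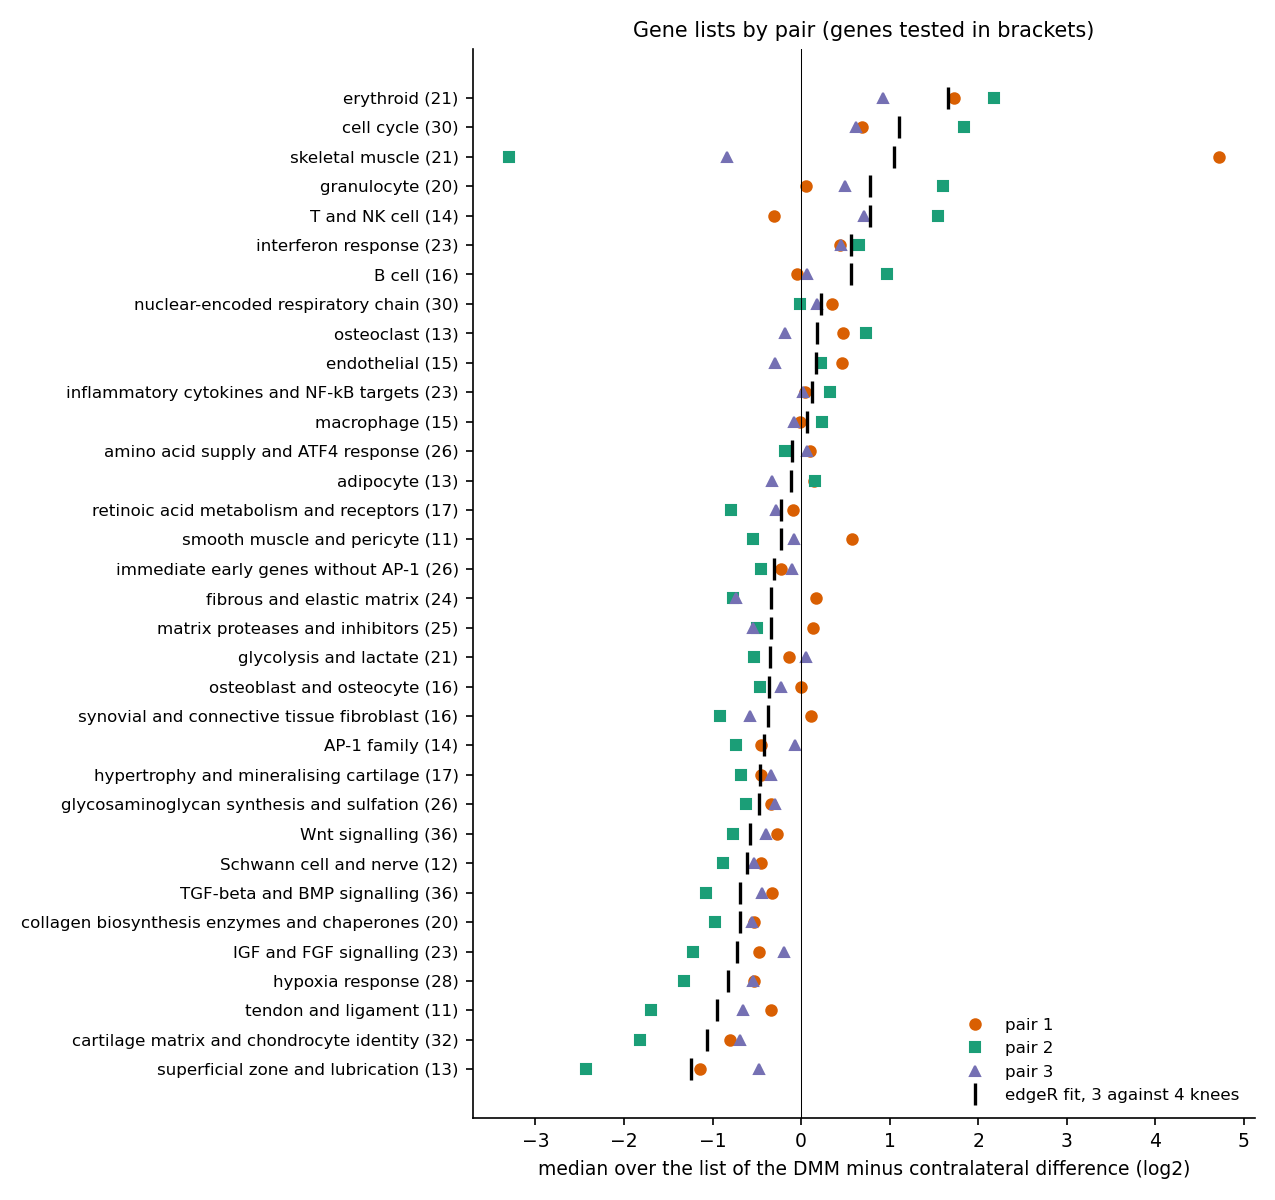
Median log2 difference between operated and contralateral knees for 34 gene lists, with 1 symbol per pair and a bar for the edgeR fit of 3 against 4 knees. Cartilage and growth factor lists lie left of 0 and erythroid and cell cycle lists right of 0 in all pairs, pair 2 has the lowest medians in the cartilage lists, and muscle points to opposite sides in pairs 1 and 2.

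The plot of list medians also shows tissues at the joint margin. Of 11 tendon and ligament genes 6 were lower in all pairs, beside 24.4% of all genes (median -0.95). Of 12 Schwann cell and nerve genes 7 were lower in all pairs (median -0.61). Pmp22, a myelin protein, had 120, 136, 120 and 79.3 CPM in contralateral knees and 67.9, 36.6 and 43.0 CPM in operated knees (-1.21 ± 0.30, DESeq2 adjusted p 0.0149). Osteoblast and osteocyte genes were lower in 5 of 16 in all pairs, near the 24.4% of all genes, and higher in 1 of 16. Skeletal muscle genes were higher in pair 1 (median 4.72) and lower in pairs 2 and 3 (-3.30 and -0.84), so their fitted median of 1.05 rests on DMM 1. Myh4, a fast myosin, had 2456 CPM in DMM 1 and 1531 CPM in contralateral 2, and 8.53 to 143 CPM in the other knees.

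Genes were also ranked by the smallest of the 3 within-pair differences. Only genes of 1 sign, without overlap between groups and with a mean of at least 10 CPM were ranked. Predicted, clone-based and mitochondrial symbols were left out. In this ranking 8 genes headed the lower end. Msmp, a secreted microseminoprotein, had 133, 54.8, 639 and 59.5 CPM in contralateral knees and 15.6, 7.39 and 20.8 CPM in operated knees (-3.93 ± 1.02, edgeR adjusted p 0.182, DESeq2 adjusted p 0.00235). Cntfr, a receptor subunit for ciliary neurotrophic factor, had 22.3, 27.7, 44.7 and 11.1 CPM against 6.09, 2.06 and 4.50 CPM. Enpp2, which makes lysophosphatidic acid, had 276, 250, 375 and 189 CPM against 116, 44.4 and 83.5 CPM. Prg4 was also among the 8, with Chrdl2, a BMP antagonist, Nxph4, a neurexophilin, Mall and Serpina1b. In each of the last 4 genes pair 2 differed most, down to -3.40 in Nxph4.

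At the upper end of the same ranking stood Epor, the erythropoietin receptor, Pklr, the pyruvate kinase of red cells and liver, Dmtn, a red cell membrane protein, Klf1 and Sptb. Epor had 9.59, 4.28, 4.30 and 17.7 CPM in contralateral knees and 26.1, 29.8 and 49.3 CPM in operated knees (1.96 ± 0.60). Apol8, Mylk3 and Isg15 made up the rest of the 8. Apol8 had 4.82, 2.78, 2.33 and 10.5 CPM against 19.6, 21.3 and 31.7 CPM, and contralateral 4 was again the highest control. With the marrow score as a covariate Epor, Pklr and Apol8 differed by 1.04, 0.99 and 1.30.

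Without both libraries of pair 2 most list medians were closer to 0 and kept their direction. The median was -0.82 for cartilage matrix and chondrocyte genes, -0.88 for the superficial zone, -0.57 for collagen biosynthesis, -0.64 for the hypoxia response, -0.43 for TGF-beta and BMP genes, -0.43 for Wnt genes and -0.48 for IGF and FGF genes. Tendon and ligament genes moved from -0.95 to -0.49. In the remaining 2 pairs 24 of 32 cartilage matrix and chondrocyte genes were lower and 1 higher, beside 5234 lower and 4904 higher of all 18125 genes tested. Interferon genes had a median of 0.45, cell cycle genes of 0.91 and erythroid genes of 1.602, and all 21 erythroid genes were higher in both pairs. The B cell median moved from 0.56 to 0.09, and that of skeletal muscle from 1.05 to 4.17, since contralateral 2 is a muscle-rich knee. Single genes without pair 2 were Sox9 at -1.19, Acan at -0.92, Prg4 at -1.65, Adm at -1.53, Cyp26b1 at -0.96, Egr1 at -1.20 and Isg15 at 1.67, with an edgeR adjusted p of 0.737 for each.

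Fewer genes passed in DESeq2 once a content score was fitted as a covariate. DESeq2 called 48 genes with the marrow score (30 higher, 18 lower) and 2 with the cartilage score, and edgeR called 0 in each fit. Slc7a2, an arginine transporter, was -1.06 without a covariate, -0.90 with the marrow score and -0.77 with the cartilage score, and Slc7a5, an amino acid transporter, was 0.86, 0.94 and 1.09. Egr1 was -1.25, -1.13 and -1.18. Acan was -1.25, -0.76 and -0.24, but it is 1 of the 32 genes averaged into the cartilage score. Part of its smaller difference with that score is thus fixed in advance. Cartilage and marrow scores differ between the groups themselves, so a gene that follows a score and a gene that follows the operation cannot be told apart in these fits.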

How the data were processed

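Per the labels' protocols, poly(A) RNA of dissected cartilage was made into directional libraries and aligned with STAR. Per the submitters' processing notes the tools were bcl2fastq 2.19.1.403, STAR 2.6.1a, RSEM and DESeq2 1.22.2 with build GRCm38. Each library has a deposited table of raw counts by gene. The column that ignores strand was read, so reads of a gene and its antisense neighbour cannot be told apart. Which column the authors took, and the annotation release, is not given in the sources used here. Reads not assigned to a gene (unmapped, multimapping, no feature, ambiguous) stayed out, which left 33.08 to 43.16% of reads as gene counts. Unmapped reads made up 17.6, 26.33, 15.07 and 11.14% in contralateral 1 to 4 and 13.61, 7.33 and 11.71% in DMM 1 to 3. Their share was lower in the operated knee of pairs 1 and 2 and slightly higher in that of pair 3. A part of this in the differences between knees was not tested. Symbols and coordinates came from GENCODE M21, which matched 55240 of 55421 genes.

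All 11 libraries entered 1 edgeR 4.0.16 quasi-likelihood fit (R 4.3.3, filterByExpr, TMM, group as the only term, two-sided, Benjamini-Hochberg threshold 0.05) over 18125 genes. The common biological coefficient of variation was 0.315. CPM were made from the deposited counts with TMM-scaled totals. The size of a log2 fold change over the root of its F statistic gave its standard error. The script was tested on simulated data. limma 3.58.1, DESeq2 1.42.0, other scalings and filters, score covariates and fits without single libraries were alternatives. Plots were drawn in matplotlib 3.10.9 under Python 3.11.15 from tables made with pandas 2.3.3 and R's data.table. DESeq2 gave no adjusted p for 3231 genes, which were counted as not called.

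The pairs come from the animal names in the labels. Deviations of same-animal knees from their group means had across-gene correlations of -0.167, -0.177 and 0.254. For a contralateral and an operated knee of different animals among the pairs they ran from -0.494 to 0.517. The same-animal values lie within that range, so they do not check the pairing. In limma the consensus correlation within animals was -0.011. No 2 knees of a group gave counts alike within sampling noise (lowest chi-square per degree of freedom 31.03). The p-values of the main fits set a difference against the spread between replicate knees. That spread comes from all 11 libraries, those of c-FosDCh animals included, and knees of 1 animal count as independent.

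The comparison, the gene lists and the named genes were chosen with earlier results of these data known. The 87 named genes were 21 fixed genes and genes taken by rule. Each list gave up to 2 members (1 for marker lists) by smallest edgeR p, with 1 sign in 3 pairs and no overlap. Up to 8 genes each way were taken by smallest within-pair difference, with 1 sign, no overlap and a mean of at least 10 CPM. Predicted, clone-based and mitochondrial symbols were left out of that step. Up to 4 each way were taken by their values relative to the cartilage score. Other members were named where DESeq2 called them or where their role helps to read a list, and these were chosen after their values were seen.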

Additional observations from a re-analysis of the deposited data

Results flagged for a closer look

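Among 90 named genes and scores, 8 had a contralateral knee far from the other 3, measured by its gap to the nearest value over the range. Chance would flag about 1 in 20 independent groups. The 90 items share the same contralateral knees and many were picked by their values, so that rate is no measure for them. Contralateral 4 was the outlying knee for 5 of them: it was low in Comp (2003 CPM), Sox5 (106.6 CPM) and Cspg4 (349.8 CPM), and high in Hbb-bs (3523 CPM) and Pklr (9.151 CPM). The same knee had the highest erythroid score of the controls (7.31). Contralateral 2 was low in Bgn (1436 CPM) and high in Mafk (35.91 CPM), and contralateral 1 was low in Col1a1 (19430 CPM).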

How the results depend on the processing

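The numbers of called genes and of genes with 1 direction depend on the setting as follows. edgeR called 0 genes at each of 21 other edgeR or limma settings, among them the animal as a replicate block (lowest adjusted p 0.2053). DESeq2 called 902 genes in the fit of all 11 libraries without the block. With the block it called 1028, but that fit held only the libraries of the 3 pairs. These DESeq2 counts thus differ in the libraries used as well as in the block. DESeq2 called 88, 53, 21, 2074, 2166, 16 and 28 genes without contralateral 1 to 4 and DMM 1 to 3 in turn, 3 without pair 2, 3032 on the 7 c-FosWT libraries alone, 48 with the marrow score and 2 with the cartilage score as covariate. At a mean of at least 10 CPM (10438 genes) 2534 genes were lower in all pairs, 41 were higher by at least 1, 16 were lower by at least 1, and 1459 had operated knees below every control. With a prior count of 0.5 or 5 instead of 2, 82 or 35 genes were lower by at least 1. Without single libraries the genes without overlap numbered 1965 to 4147 above and 2508 to 4803 below. The highest counts came without contralateral 4 (3560 and 4025) and DMM 1 (4147 and 4803); the cause was not tested beyond the smaller number of knees.

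Of 87 named genes 75 kept their direction at every setting. A score used as a covariate includes its own list members, so part of their shift in that fit is fixed in advance. Among the genes that turned, Col2a1, Matn3 and Sox6 are members of the cartilage score, and S100a8 and Padi4 of the marrow score. With the marrow score as covariate the log2 difference turned to -0.70 for Matn3, -0.0861 for Col1a1, -1.10 for S100a8, -0.26 for Padi4, -0.15 for Runx3, 0.0355 for Phospho1 and 0.27 for Sox6. With the cartilage score it was 0.34 for Col2a1, -0.23 for Col1a1, -0.33 for S100a8, -0.0342 for Runx3 and 0.46 for Sox6, and with both scores 0.32, -0.30, -0.99, -0.24 and 0.51, and -0.46 for Padi4. With the muscle score it was -0.76 for Matn3 and -0.0171 for Slc20a2, and without the muscle-rich libraries -1.21 for Matn3, -0.0331 for Mmp13 and -0.0208 for Slc20a2. Upper quartile scaling gave -0.0158 for Slc20a2. The replicate block gave 0.0845 for Bglap, -0.46 for Acta1 and 0.0010 for Phospho1, and leaving out pair 2 gave 0.10 for Sox6. Without single libraries the ranges were -0.80 to 2.85 for Matn3, -0.48 to 0.0868 for Bglap, -1.98 to 3.60 for Acta1, -0.0577 to 0.11 for Slc20a2, -0.25 to 0.15 for Phospho1 and -0.13 to 0.11 for Sox6, and the cause was not tested. With Col2a1 alone as the reference for cartilage content, Sox9 was -1.01 and Has2 -0.99. Genes below 1 CPM rest on few counts at this depth.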

Other observations

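The adipocyte score over 13 genes overlapped between the groups, at 3.06, 3.96, 3.92 and 3.71 in contralateral 1 to 4 and 3.18, 3.93 and 3.48 in DMM 1 to 3. Adipoq, a hormone of fat cells, had 22.3, 24.4, 37.2 and 38.5 CPM in contralateral 1 to 4 and 24.7, 52.5 and 28.2 CPM in DMM 1 to 3. Endothelial genes had a median log2 difference of 0.17, and Pecam1 had 62.2, 84.2, 67.5 and 89.2 CPM against 98.9, 96.8 and 67.5 CPM. Ihh, the hedgehog ligand of prehypertrophic chondrocytes, was lower in every operated knee, at 9.20, 4.41 and 13.5 CPM against 19.9, 21.8, 24.0 and 19.7 CPM (-1.24 ± 0.61, edgeR adjusted p 0.283). Timp3, an inhibitor of aggrecanases, had 808, 1169, 988 and 561 CPM against 494, 197 and 408 CPM (-1.27 ± 0.47, edgeR adjusted p 0.201). These 4 genes were picked after their values were seen.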
